A study of Mus musculus with 9 samples.

Results

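The 32 genes described here are genes of nerve cells and of the glia that surround them, as the wall of the gut holds them in its enteric nervous system. They were chosen by name: every probe set of the array whose only gene symbol was one of the 32 was taken, out of 18193 genes with such a probe set. These genes had 78 probe sets, of which 55 passed a filter on dim signals, and 30 of the 32 genes had at least 1 that passed. The other two, Chat and Th, stayed below it, and Elavl3 passed only through its forestomach arrays. A gene that passes through 1 zone alone had to differ between zones, so its place among the genes called below carries no weight. Signals of 20 members were above the filter level on all 9 arrays.

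RNA came from stripes 600 to 800 µm wide cut side by side from the stomachs of untreated, healthy mice, all female C57Bl/6 aged 3 months. The zones were the squamocolumnar junction (the line where squamous and glandular lining meet), the forestomach (the non-glandular part, lined by stratified squamous epithelium) and the corpus (the acid-secreting glandular part). Tissue of 3 mice was pooled per series, giving 3 arrays in each zone and 9 in all. The 3 arrays that carry one series number thus share their mice. The labels call all of the tissue epithelium, but the smooth muscle actin gene Acta2 had a signal of at least 8612 on every array, so the stripes held muscle as well as lining.

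The enteric nervous system is a network of ganglia and fibres that lies mainly between the muscle layers of the gut wall and drives its movement and secretion. Its neurons and glia arise from neural crest cells, which need the receptor Ret and its ligand GDNF to settle in the gut. Fibres of vagal and sympathetic neurons, whose cell bodies lie outside the stomach, run in the same wall. In whole tissue, fewer nerve cells and less RNA per nerve cell cannot be told apart.

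Differences below are log2 differences of signal plus a pseudocount of 9.8, with the standard error (SE) and the limma p-value adjusted by the Benjamini-Hochberg method over 13637 genes. A gene is said to have risen or fallen where that adjusted p was under 0.05. A fold on this scale understates the change of dim genes. The 3 comparisons share arrays, so their counts are not independent of each other.

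Most of the nerve genes were brighter in the forestomach than in the corpus. Of the 30 members tested, 19 rose and 3 fell in the forestomach against the corpus, and 8 did not pass the test, where 30% of all genes tested rose and 29.9% fell. Elavl3 is 1 of the 19. The rises ranged from 1.24-fold for Uchl1 to 3.16-fold for Cdh19, and the falls from 1.53-fold for Dbh to 2.12-fold for Syp, with Mbp between them. The median difference over the members tested was 0.63 (0.56 over all 32 members without the filter), against -0.01 over all genes tested. The forestomach and corpus arrays did not overlap for any of the 22 genes that passed. Of all genes tested, 33.2% had every forestomach array above every corpus array, and 33.2% had the reverse order. A difference of at least 1 was reached by 8 of the rises and 1 of the falls, as in 13.2% and 12.4% of all genes.

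In the junction against the forestomach, 2 members rose (Dbh and Mbp) and 21 fell, where 21.5% of all genes tested rose and 23.1% fell. These 21 were the same 19 that rose in the forestomach against the corpus, together with Phox2a and Tubb3. The falls ranged from 1.45-fold for Phox2a to 4.22-fold for Cdh19, and 12 of them reached a difference of at least 1 (6.99% of all genes), as did 0 of the rises (8.02%). Arrays did not overlap for any of the 23, where 26% of all genes had junction arrays above and 29.8% below all forestomach arrays. The median difference was -0.86 over the members tested (-0.80 over all 32 without the filter), against -0.04 over all genes. Against the corpus the junction differed in fewer members: 1 rose (L1cam) and 5 fell (Cartpt, Scg2, Syp, Syt1 and Uchl1), where 13.2% of all genes tested rose and 11.8% fell. The median junction minus corpus difference was -0.34 over the members tested and -0.32 over all 32 without the filter, against -0.05 over all genes. None of these 6 differences reached 1 (5.52% of all genes did upward and 1.47% downward). All 3 junction arrays lay below all 3 corpus arrays for 10 members, where 23.7% of all genes tested had that order, and above them for 1 (20% of all genes). Centring each array on its median moved the junction minus corpus differences up by 0.10, and 2 members then rose and 3 fell. Of all genes, 2110 then rose and 873 fell in the junction against the corpus, where 1800 and 1606 did without centring.

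**Figure D1:**
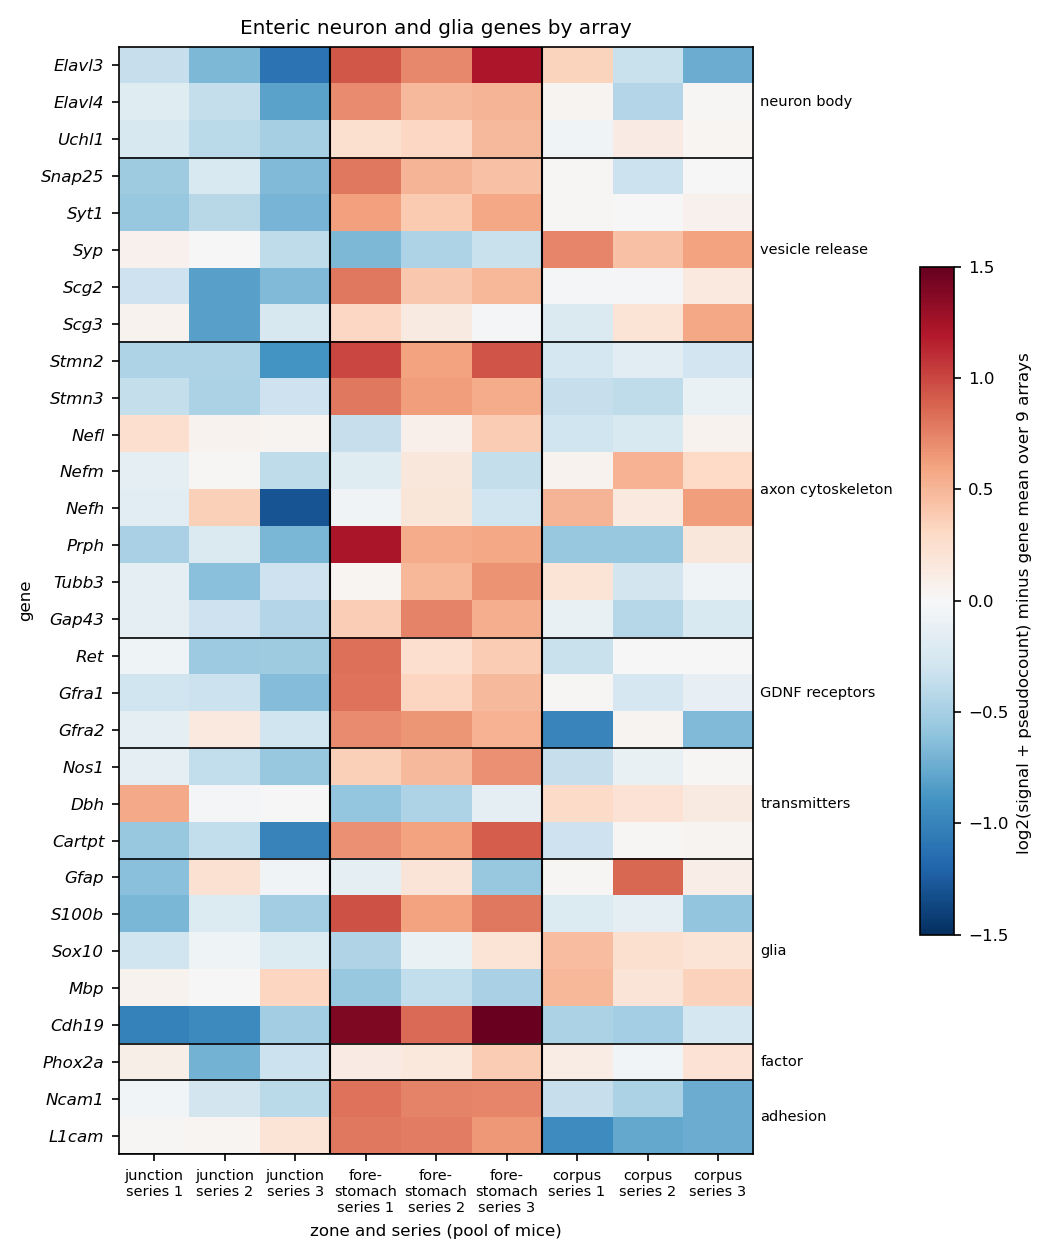
Each row is 1 of the 30 members tested, grouped by role, and each column 1 array; colour gives log2(signal + pseudocount) minus the gene's mean over the 9 arrays. The forestomach columns are red for most rows, and Syp, Dbh and Mbp run the other way; the values lie between -1.3 and 1.49.

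Other tissues of the stripe differed between the zones as well. For the counts that follow, 30% of all genes tested rose and 29.9% fell in the forestomach against the corpus. In the junction, 13.2% rose and 11.8% fell against the corpus, and 21.5% and 23.1% did against the forestomach. Each of the 14 genes of smooth muscle that were measured rose in the forestomach against the corpus (median difference 1.53), each fell in the junction against the forestomach (median -1.50), and 0 passed in the junction against the corpus (median -0.01). Their summed signal was 34136 to 39839 on the junction arrays, 79215 to 86261 on the forestomach arrays and 30205 to 42726 on the corpus arrays, and none of the 14 was below the filter level. The summed signal of the 32 nerve genes was 2857.5 to 3122.5 in the junction, 4691 to 5145 in the forestomach and 3270 to 3459 in the corpus. The part of the amount of muscle in the differences of the nerve genes was not tested. Of 6 fibroblast genes, 5 rose in the forestomach against the corpus (median difference 0.89), 4 fell in the junction against the forestomach (median -0.43) and 2 rose in the junction against the corpus. They summed to 20473 to 21859 in the junction, 26337 to 34249 in the forestomach and 14421 to 16822 in the corpus, with none below the filter level, and their part was not tested. Enteroendocrine cells, the hormone cells of the glands, share secretory vesicle genes with neurons. Their 16 marker genes summed to 10446 to 13712.5 in the junction, 595 to 806 in the forestomach and 15793 to 18511 in the corpus. Against the corpus, 12 of the 14 measured fell in the forestomach and 5 fell in the junction, while 8 markers were below the filter level on every forestomach array. Their part in the members' values was not tested either.

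**Figure D2:**
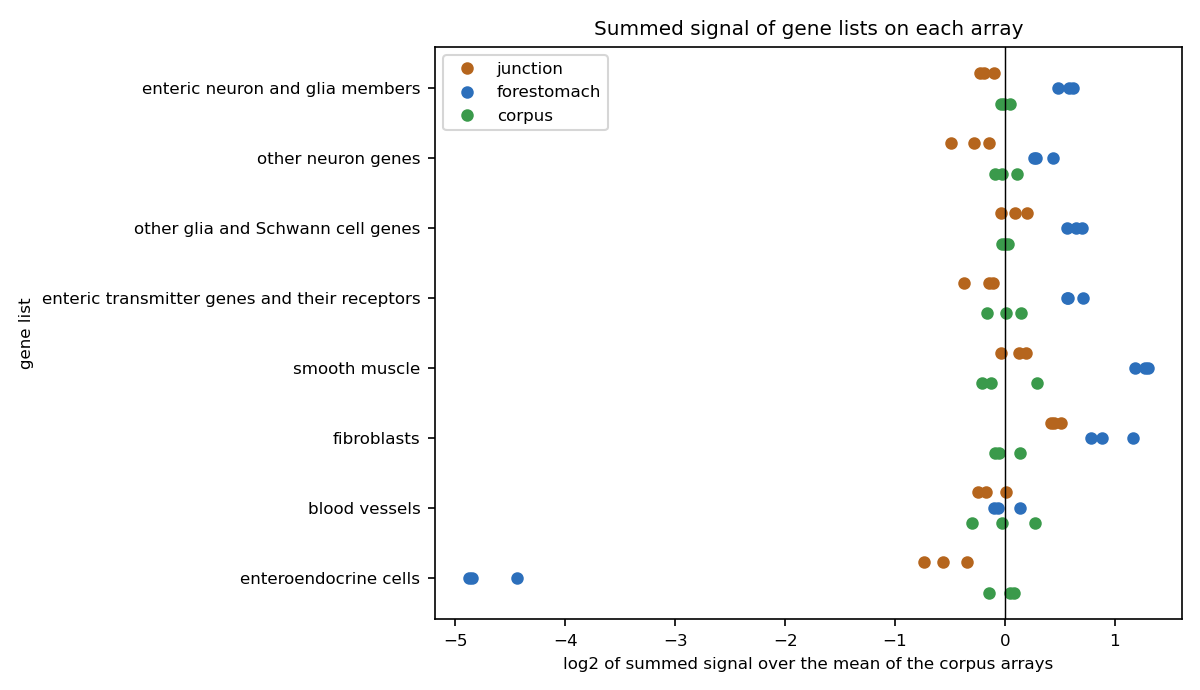
Points give, for each of the 9 arrays, the summed signal of a gene list as log2 of its ratio to the mean of the 3 corpus arrays. The 4 nerve and glia lists plotted are highest in the forestomach, as are smooth muscle and fibroblast genes, whereas enteroendocrine markers are lowest there. Bright genes weigh most in a sum. Hand2, in the list of other neuron genes, had 1004 to 1317 in the forestomach and 179 to 291 in the corpus. Art3, in the glia and Schwann cell list, had 1526 to 1946 and 403 to 464. Of the 32 other neuron genes tested, 8 rose in the forestomach against the corpus, where 30% of all genes did.

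Some arrays stood apart from the others of their zone. Summed gastric gland transcripts were 1402, 25337 and 32670 on the forestomach arrays of series 1, 2 and 3, and skeletal muscle transcripts summed to 2026 on the junction array of series 1 and to 2653 on the forestomach array of series 3, against 304 to 800.1 on the others. Adipocyte markers summed to 5792 on the forestomach array of series 3 and to 3618 and 3003 on the other two of that zone. Without the forestomach arrays of series 2 and 3, a single forestomach array remained, which gives no estimate of the spread in its zone. The calls of Cartpt, Elavl3, Elavl4, Nos1 and Uchl1 in the forestomach against the corpus were lost in that fit. The differences were 0.77 for Cartpt, 1.18 for Elavl3, 0.84 for Elavl4, 0.50 for Nos1 and 0.20 for Uchl1, against 0.82, 1.20, 0.70, 0.65 and 0.31 with all arrays. Without the forestomach array of series 3 and the junction array of series 1, 18 members rose and 4 fell in the forestomach against the corpus. The 3′ to 5′ ratio of the Gapdh control probe sets, which reads RNA integrity, was 0.759 ± 0.004 in the junction, 0.846 ± 0.071 in the forestomach and 0.723 ± 0.029 in the corpus (SD, n = 3 each). For the actin control the ratio was 1.524 ± 0.038 in the junction, 1.653 ± 0.080 in the forestomach and 1.653 ± 0.079 in the corpus.

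The genes that mark neuronal cell bodies come first. Elavl4 encodes HuD, an RNA-binding protein of neurons whose family (the Hu proteins) is the usual stain for enteric neurons. Its signals were 41.5, 35.9 and 23.7 in the junction, 85.9, 72.2 and 73.1 in the forestomach and 50.2, 33.3 and 49.3 in the corpus (series 1, 2 and 3). On this probe set the forestomach arrays lay above all 6 others, and junction and corpus arrays overlapped. Elavl4 rose there in the forestomach against the corpus (0.70 ± 0.19, SE, adjusted p = 0.0109) and fell in the junction against the forestomach (-1.02 ± 0.19, adjusted p = 0.00238). The rise did not pass on its other kept probe sets, which had 0.03 (adjusted p = 0.947) and 0.73 (0.0667). For junction minus corpus these had -1.12 (0.0455, arrays without overlap) and -0.44 (0.327). Both fell in the junction against the forestomach (-1.15, adjusted p = 0.0238, and -1.17, 0.014). Uchl1, the ubiquitin hydrolase known as PGP9.5 that stains neurons and their fibres, had 115, 102 and 94.6 in the junction, 164, 173 and 196 in the forestomach and 132.5, 151 and 141 in the corpus. The zones did not overlap, in the order junction, corpus, forestomach from low to high. Uchl1 rose in the forestomach (0.31 ± 0.11, adjusted p = 0.0356) and fell in the junction (-0.41 ± 0.11, adjusted p = 0.0242), both against the corpus. Both of these calls are fragile: with the series as a block the adjusted p was 0.0637 in the forestomach and 0.0504 in the junction. The forestomach call was also lost without the forestomach array of series 2 (adjusted p = 0.0616) or 3 (0.118) or the corpus array of series 1 (0.108) or 3 (0.077), and the junction call without the junction array of series 2 (0.0711) or 3 (0.0844) or the corpus array of series 2 (0.0757) or 3 (0.0599). Elavl3, another neuronal Hu protein, had 47.4, 39.9 and 60 in the forestomach but 4.2 to 13.8 in the junction and 8.1 to 28.2 in the corpus, all below the filter level.

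Proteins of vesicle release did not move as 1 group. Snap25, a membrane protein of the fusion machinery of synaptic vesicles, had 104, 130.2 and 94.0 in the junction, 274, 224 and 214 in the forestomach and 157, 122 and 155 in the corpus. Forestomach arrays were again the highest, and it rose there against the corpus (0.68 ± 0.15, adjusted p = 0.00482). Syt1, the calcium sensor of transmitter release, had 66.9, 75.4 and 60.2 in the junction, 165, 139 and 160.4 in the forestomach and 105, 104 and 109 in the corpus. On this probe set its zones did not overlap: it rose 1.42-fold in the forestomach against the corpus (adjusted p = 0.00296) and fell 1.50-fold in the junction against the corpus (adjusted p = 0.00446). Its other kept probe set passed in neither comparison (0.13, adjusted p = 0.638, and -0.33, 0.304). The forestomach call of Syt1 was lost without all arrays of series 1, and its junction call without those of series 1 or 3. Scg2, secretogranin II, a protein of dense-core vesicles from which the peptide secretoneurin is cut, had 161, 111 and 125 in the junction, 357, 271 and 289.5 in the forestomach and 201, 199 and 226 in the corpus. The same order held without overlap (forestomach minus corpus 0.52 ± 0.15, adjusted p = 0.0159; junction minus corpus -0.63 ± 0.15, adjusted p = 0.0177). The forestomach call of Scg2 was lost without the forestomach array of series 1 (adjusted p = 0.0572), and its junction call without the junction array of series 2 (0.0618) or 3 (0.0609) or the corpus array of series 3 (0.0579).

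Syp encodes synaptophysin, a membrane protein of small vesicles in neurons and in endocrine cells. In contrast to the 3 genes above, its signals were 96.5, 91.3 and 68.4 in the junction, 53.9, 63.7 and 70.8 in the forestomach and 159.5, 128 and 144 in the corpus. The corpus arrays lay above all others, whereas junction and forestomach arrays overlapped. Syp fell in the forestomach (-1.09 ± 0.15, adjusted p = 2.58e-04) and in the junction (-0.70 ± 0.15, adjusted p = 0.00992), both against the corpus. The zone means of Chga, the chromogranin that defines enteroendocrine cells, ran in the same order, with 981 to 1306 in the junction, 89.3 to 122 in the forestomach and 1912 to 2111 in the corpus. Scg3, a secretogranin of the same vesicle class as Scg2, passed in none of the comparisons, with intervals of its difference from -0.62 to 0.54 for forestomach minus corpus and from -1.10 to 0.06 for junction minus corpus (95%).

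**Figure D3:**
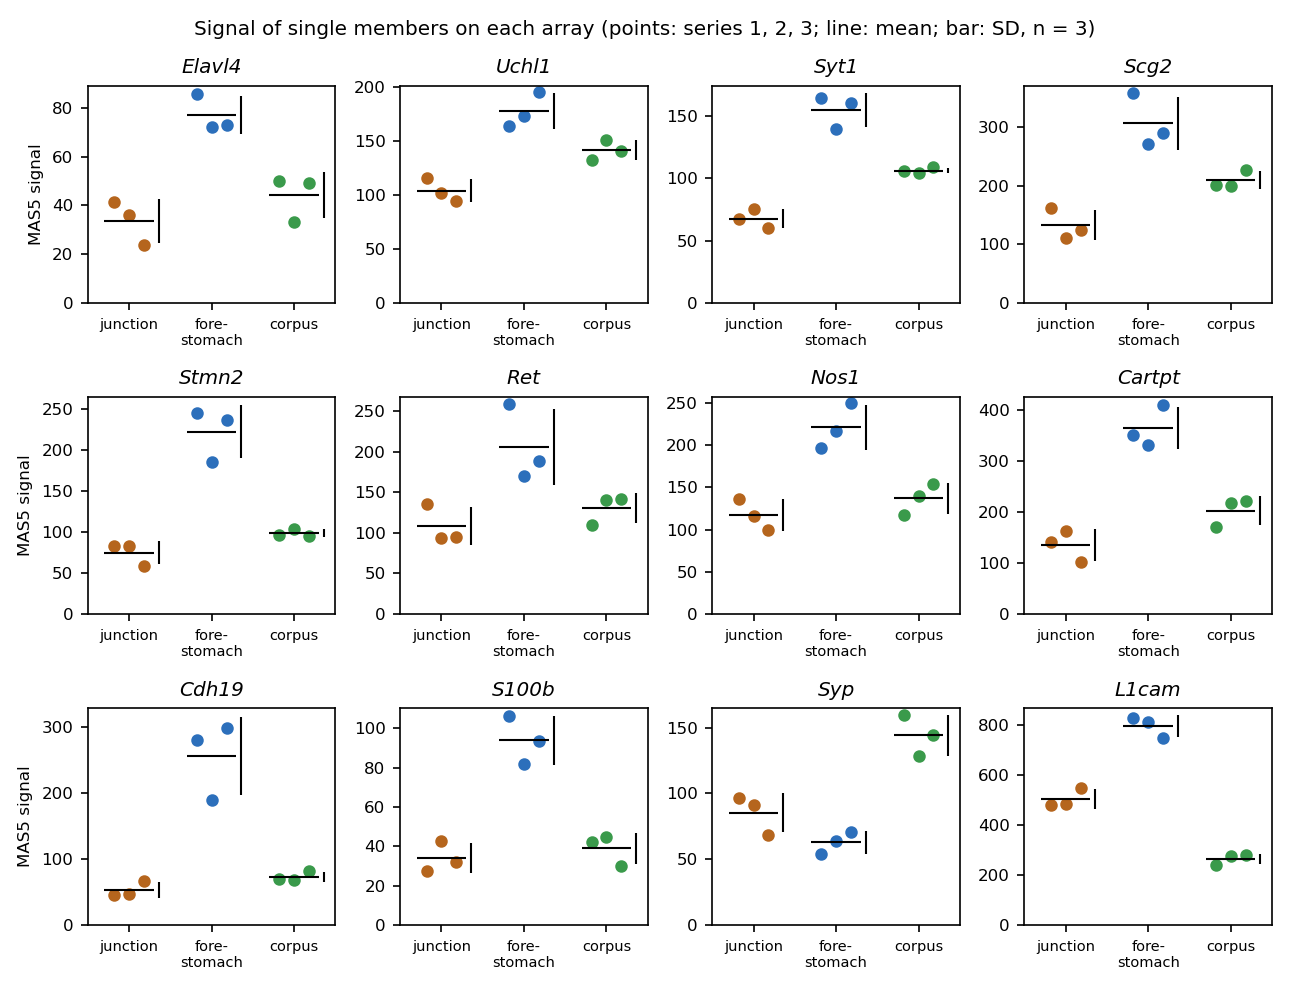
Signals of 12 members on each array (points), with the mean (line) and SD (bar) of 3 arrays in junction, forestomach and corpus; each vertical axis starts at 0. The forestomach is the highest zone in all panels but that of Syp, where the corpus is, and L1cam is the panel in which the junction lies clearly above the corpus. The 12 were picked for display and do not stand for the 30 members tested, of which 19 rose and 3 fell in the forestomach against the corpus. Dbh and Mbp, which fell there, are not shown.

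Genes of the axon and its cytoskeleton fell into 2 patterns. Stmn2 encodes stathmin-2 (SCG10), a tubulin-binding protein of growing and regrowing axons. It had 83.1, 82.9 and 59.1 in the junction, 246, 185 and 237 in the forestomach and 96.8, 104 and 94.7 in the corpus. Its zones did not overlap on this probe set. It rose 2.13-fold in the forestomach against the corpus (adjusted p = 2.65e-04) and fell 2.75-fold in the junction against the forestomach (adjusted p = 9.89e-05). On its other kept probe set junction and corpus arrays overlapped (junction minus corpus -0.09, adjusted p = 0.77). The related Stmn3 had 84.3 to 96.0 in the junction, 182 to 216 in the forestomach and 90.3 to 112.5 in the corpus. It rose 1.90-fold in the forestomach against the corpus (adjusted p = 1.17e-04). On its other kept probe set forestomach minus corpus was 0.39 and did not pass (adjusted p = 0.0537). Prph, peripherin, is an intermediate filament of peripheral neurons. Its signals were 48.9, 61.0 and 41.3 in the junction, 182, 111 and 113 in the forestomach and 45.6, 45.8 and 82.9 in the corpus, and it rose 2.15-fold in the forestomach against the corpus (adjusted p = 0.00505). Gap43, a protein of growth cones, had 35.5 to 46.1 in the junction, 69.5 to 93.5 in the forestomach and 36 to 47.0 in the corpus and rose 1.75-fold in the forestomach against the corpus (adjusted p = 8.72e-04). Tubb3, the neuronal beta tubulin, fell in the junction against the forestomach alone (-0.76 ± 0.20, adjusted p = 0.015), a call lost without the junction array of series 2 (adjusted p = 0.0531) or the forestomach array of series 3 (0.0533).

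The neurofilament genes Nefl, Nefm and Nefh, which encode the light, medium and heavy subunits of the filaments of thick axons, passed in none of the comparisons. Their signals were low, at 4.2 to 41.5 in the junction, 18.2 to 46.2 in the forestomach and 25.1 to 53.0 in the corpus, and each was above the filter level on 3 to 6 arrays. The 95% interval for forestomach minus corpus was -0.22 to 0.62 for Nefl, -0.82 to -0.01 for Nefm and -1.32 to 0.35 for Nefh. None of the 3 intervals holds a rise as large as that of Stmn2 (1.09). Nefm passed with the series as a block, lower in the forestomach (adjusted p = 0.0227) and in the junction (0.0365) than in the corpus. It also passed without the forestomach array of series 2 (forestomach minus corpus -0.56, adjusted p = 0.0254) or the corpus array of series 1 (-0.53, 0.0426).

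Receptors of the GDNF family carry the growth signal on which enteric neurons depend. Ret, the signalling receptor, had 135, 94.0 and 95 in the junction, 258, 170.3 and 188 in the forestomach and 109.8, 141 and 142 in the corpus. The forestomach arrays were above all others, and it rose 1.52-fold there against the corpus (0.60 ± 0.19, adjusted p = 0.0242) and fell 1.82-fold in the junction against the forestomach (adjusted p = 0.00636). The rise of Ret was lost without the forestomach array of series 1 (adjusted p = 0.0801) or the corpus array of series 1 (0.0829). On the other kept probe set of Ret neither difference passed (-0.04, adjusted p = 0.949, and -0.71, 0.191). Gfra1, the co-receptor that binds GDNF, had 34.1 to 46.3 in the junction, 76.8 to 112 in the forestomach and 48.4 to 60.1 in the corpus. Its zones did not overlap on this probe set. It rose 1.58-fold in the forestomach against the corpus (adjusted p = 0.00555) and fell 1.96-fold in the junction against the forestomach (adjusted p = 0.00112). On the other kept probe set of Gfra1 neither difference passed (0.23, adjusted p = 0.701, and -0.81, 0.205). Gfra2, the co-receptor for neurturin, rose 2.24-fold in the forestomach against the corpus on the probe set that stands for it (adjusted p = 0.0029), but its probe sets disagreed, as given further on. Its fall in the junction against the forestomach (-0.73 ± 0.24, adjusted p = 0.0366) was lost without any 1 of 5 arrays, namely the junction arrays of series 1 (0.0894) and 3 (0.107) and the forestomach arrays of series 1 (0.0953), 2 (0.0829) and 3 (0.0632), and was -0.076 with the mean of its probe sets (adjusted p = 0.708).

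Transmitter genes named several classes of neuron. Nos1, the nitric oxide synthase of the inhibitory motor neurons that relax gut muscle, had 136, 116 and 99.2 in the junction, 197, 217 and 249 in the forestomach and 117.5, 140.3 and 154 in the corpus. Forestomach arrays were above all others, and Nos1 rose 1.57-fold there against the corpus (adjusted p = 0.00457) and fell 1.82-fold in the junction against the forestomach (adjusted p = 0.00158). Cartpt, the precursor of the CART peptide, which enteric neurons make, had 141.5, 164 and 102 in the junction, 351, 331 and 411 in the forestomach and 170.5, 217 and 222 in the corpus. Its zones did not overlap. Cartpt rose in the forestomach against the corpus (0.82 ± 0.18, adjusted p = 0.00383) and fell in the junction against the forestomach (-1.38 ± 0.18, adjusted p = 3.62e-04). The fall in the junction against the corpus lay at the threshold (-0.56 ± 0.18, adjusted p = 0.0495) and was lost with the series as a block (0.0821). It was lost too without any 1 of 7 arrays, namely the junction arrays of series 1 (0.0749) and 3 (0.135), the forestomach arrays of series 1 (0.0683), 2 (0.0619) and 3 (0.0572) and the corpus arrays of series 2 (0.129) and 3 (0.129).

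Dbh, the dopamine beta-hydroxylase of noradrenaline synthesis, is known from sympathetic neurons and from developing enteric neurons. It ran against the others, with 178, 115 and 117 in the junction, 75.1, 81.8 and 105 in the forestomach and 144.5, 138 and 129 in the corpus. The forestomach arrays were the lowest, and Dbh fell there against the corpus (-0.61 ± 0.18, adjusted p = 0.0158) and rose in the junction against the forestomach (0.58 ± 0.18, adjusted p = 0.0264). Without the forestomach array of series 1 both calls were lost (adjusted p = 0.0564 and 0.0883). The second was lost as well without the junction array of series 1 (0.0622) or the forestomach array of series 2 (0.0718). The other kept probe set of Dbh had 0.10 for junction minus forestomach (adjusted p = 0.815), and the mean of both sets 0.34 (adjusted p = 0.254). Th, tyrosine hydroxylase, the first step of the same pathway, had 5.9 to 19.3 in the junction, 20.9 to 31.8 in the forestomach and 6.7 to 26.1 in the corpus. Chat, choline acetyltransferase, which makes the transmitter of the excitatory neurons, had 8.3 to 33.8 in the junction, 8.5 to 27.8 in the forestomach and 5.6 to 31.5 in the corpus. Each of these 2 genes was above the filter level on a single array. Fitted without the filter, forestomach minus corpus was 0.39 for Th (95% interval -0.39 to 1.18) and 0.06 for Chat (-1.02 to 1.14), so no difference was detectable at these signals.

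Letters of known control sites were looked for in the promoters of the members. Cartpt and Scg2, whose junction arrays were below all others, were known beforehand as targets of cAMP signalling, so a match in them is shown as a description and nothing is read from its frequency. RefSeq (GRCm38.p6) promoter sequences, 300 bases each from 250 before to 50 after a start, were at hand for 20 of the 32 genes (25 sequences). The cAMP response element TGACGTCA, the binding site of CREB, which reads the same on both strands, was in the promoters of 3 members, Cartpt, Scg2 and Th, and in 1.79% of 32851 promoters of the same length. Its first 5 letters TGACG, on either strand and counting the full element too, were in 10 of the 25 sequences (8 members) and in 20.8% of all promoters. The full element began 112 bases before the start in Cartpt, 68 in Scg2 and 45 in Th. The 250 bases before the start are shown for these 3 genes, and for Uchl1, which fell in the junction together with Cartpt and Scg2 and holds none of the motifs, 5′ to 3′ on the strand of the gene. Capitals mark the cAMP response element and the letters CAGCACC or GGACAG (or their reverse complements), the left and right parts of RE1, the site of the repressor REST that silences nerve genes outside neurons.
Cartpt, chr13:99900684-99900933, minus strand: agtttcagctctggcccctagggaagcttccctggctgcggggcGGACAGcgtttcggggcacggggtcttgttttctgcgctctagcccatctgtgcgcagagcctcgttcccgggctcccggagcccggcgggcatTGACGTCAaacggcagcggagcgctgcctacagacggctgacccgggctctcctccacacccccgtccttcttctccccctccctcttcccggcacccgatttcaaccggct
Scg2, chr1:79440027-79440276, minus strand: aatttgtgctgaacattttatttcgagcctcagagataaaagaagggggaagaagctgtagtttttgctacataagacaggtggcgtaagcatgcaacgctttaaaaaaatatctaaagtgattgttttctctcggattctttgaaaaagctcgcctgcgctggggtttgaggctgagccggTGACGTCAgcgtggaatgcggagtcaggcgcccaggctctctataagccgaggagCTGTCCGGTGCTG
Th, chr7:142899996-142900245, minus strand: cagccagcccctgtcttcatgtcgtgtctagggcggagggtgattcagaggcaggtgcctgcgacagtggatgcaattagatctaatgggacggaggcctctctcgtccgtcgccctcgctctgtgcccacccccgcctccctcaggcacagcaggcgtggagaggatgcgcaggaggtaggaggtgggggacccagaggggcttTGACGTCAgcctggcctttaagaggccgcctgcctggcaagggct
Uchl1, chr5:66675871-66676120, plus strand: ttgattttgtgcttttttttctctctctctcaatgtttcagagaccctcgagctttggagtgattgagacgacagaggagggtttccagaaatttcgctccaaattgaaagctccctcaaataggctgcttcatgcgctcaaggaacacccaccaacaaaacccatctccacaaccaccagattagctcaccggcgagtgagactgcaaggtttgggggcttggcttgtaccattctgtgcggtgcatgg
In Scg2 the reverse complements of both RE1 parts abut directly before the start, the right part beginning 13 and the left part 7 bases before it. Each part was searched alone, and a whole RE1 with its spacing was not searched, so this is no match to a whole site. The left part was in 2 members (Scg2 and Tubb3) and in 7.14% of all promoters, and the right part in 7 members (Cartpt, Dbh, Gfra1, Phox2a, Scg2, Syt1 and Tubb3) and in 22.2% of all promoters, searched on both strands with no overlap between the marked motifs in the 4 sequences shown. Such a match describes letters and not binding.

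Glial genes split 3 ways. The 5 glial members summed to 637 to 783 in the junction, 743 to 832 in the forestomach and 811 to 919 in the corpus. The largest part of each sum was 1 probe set of Mbp, with means of 512 in the junction, 334 in the forestomach and 597 in the corpus. The probe sets of Mbp disagreed, as given further on, so the sum gives no direction for the glial genes. Cdh19, a cadherin of Schwann cells and their precursors at chr1:110888002-110977601, had 44.8, 47.1 and 66.7 in the junction, 281, 189 and 299 in the forestomach and 69.6, 67.6 and 81.7 in the corpus. On the probe sets that stand for the genes it showed the largest difference of the members in both forestomach comparisons. It rose 3.16-fold in the forestomach against the corpus (1.66 ± 0.19, adjusted p = 9.43e-05) and fell 4.22-fold in the junction against the forestomach (-2.08 ± 0.19, adjusted p = 5.85e-05). Its junction arrays were below the other 6, yet junction minus corpus did not pass (-0.41, 95% interval -0.85 to 0.03). S100b, the calcium-binding protein used to stain enteric glia, had 27.6, 42.5 and 32.2 in the junction, 106, 81.6 and 93.7 in the forestomach and 42.4, 44.5 and 29.9 in the corpus. The forestomach arrays stood above all others, and it rose 2.14-fold there against the corpus (adjusted p = 5.47e-04) and fell 2.37-fold in the junction against the forestomach (adjusted p = 4.77e-04). On the other probe set of S100b kept, forestomach minus corpus was 2.47 (adjusted p = 4.00e-04), and with the mean of both sets it was 1.78 (adjusted p = 1.09e-04), so S100b then exceeds Cdh19 in that comparison.

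Sox10, the transcription factor that enteric glia keep from the neural crest, passed in none of the comparisons. It had 58.4, 70.8 and 63.0 in the junction, 51.5, 68.6 and 87.2 in the forestomach and 106, 89.6 and 86.9 in the corpus. Junction arrays were below corpus arrays without overlap (-0.49, 95% interval -0.87 to -0.11, adjusted p = 0.0618), and forestomach arrays overlapped both (forestomach minus corpus -0.42, adjusted p = 0.0562). Sox10 passed, lower in the junction, without the forestomach array of series 1 (0.0294) or 3 (0.0335), and lower in the forestomach without the forestomach array of series 3 (0.012). Its other probe set kept ran the other way for forestomach minus corpus without passing (0.38, adjusted p = 0.172). Gfap, the filament protein of enteric glia and astrocytes, had 20.7 to 45.8 in the junction, 22 to 44.1 in the forestomach and 38.1 to 76.3 in the corpus. All 3 zones overlapped for it, and it passed in none of the comparisons (forestomach minus corpus -0.50, 95% interval -1.20 to 0.19).

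Mbp encodes myelin basic protein, but the gene also holds the transcripts of golli proteins, which are made in other cells such as lymphocytes. On the probe set that stands for the gene it had 485.5, 466 and 586 in the junction, 312, 360.1 and 331 in the forestomach and 663, 533 and 595 in the corpus. It fell in the forestomach against the corpus (-0.82 ± 0.12, adjusted p = 4.75e-04) and rose in the junction against the forestomach (0.60 ± 0.12, adjusted p = 0.00437). Its 8 kept probe sets disagreed in the fit of all 29511 kept probe sets, from which the p-values of single sets come: 5 rose in the forestomach against the corpus, up to 1.38 (adjusted p = 2.30e-05), 2 fell, down to -2.02 (adjusted p = 2.71e-05), and 1 did not pass. With the mean of its probe sets, Mbp had 0.16 for forestomach minus corpus (adjusted p = 0.107) and -0.43 for junction minus forestomach (adjusted p = 0.00221). No single direction can therefore be given for the gene. Gfra2 and Ncam1 had disagreeing probe sets for forestomach minus corpus as well. For Gfra2 the set that stands for the gene had 1.17 (adjusted p = 0.00356) and another -0.75 (adjusted p = 0.00509), and the mean of its sets was 0.13 (adjusted p = 0.488). For Ncam1 the corresponding values were 1.29 (adjusted p = 6.67e-05), -0.53 (adjusted p = 0.00624) and 0.32 (adjusted p = 0.0274). With the mean of the kept probe sets the forestomach calls of Gfra1 (0.45, adjusted p = 0.208), Ret (0.28, 0.231) and Syt1 (0.31, 0.0844) were lost as well, and Elavl4 (-0.63, 0.0073), Nos1 (-0.32, 0.0397) and Mbp (-0.27, 0.0347) passed as lower in the junction than in the corpus. Over all 55 kept probe sets of the members, 27 rose and 7 fell in the forestomach against the corpus, where 25.2% and 27.6% of all kept probe sets did. In the junction against the corpus 2 rose and 9 fell (9.14% and 9.93% of all), and in the junction against the forestomach 3 rose and 33 fell (17.3% and 20% of all). The 27 rises and the 33 falls each include a set of Elavl3 and a set of Mbp that passed the filter through forestomach arrays alone. Those calls carry no weight, and that Mbp set is also among the 5 that rose.

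**Figure D4:**
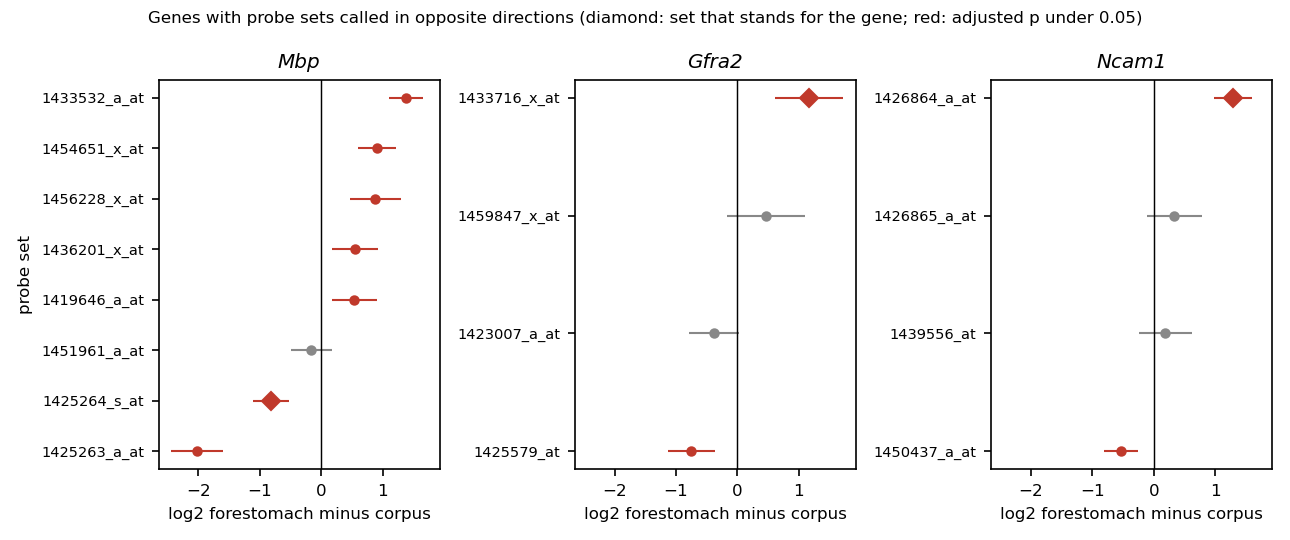
Log2 differences, forestomach minus corpus, with 95% intervals for each kept probe set of Mbp, Gfra2 and Ncam1; the diamond is the set that stands for the gene and red marks an adjusted p under 0.05. In each gene at least 1 red point lies on either side of 0.

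The members hold 2 cell adhesion molecules of axons and glia. On the probe sets that stand for the genes, L1cam rose in the junction against the corpus and Ncam1 did not pass there. L1cam had 480.3, 482 and 549 in the junction, 826, 811.5 and 746 in the forestomach and 241, 275 and 279 in the corpus. On this probe set no zones overlapped, and the order was forestomach, junction, corpus from high to low. It rose 1.87-fold in the junction against the corpus (0.90 ± 0.10, adjusted p = 3.38e-04) and 2.93-fold in the forestomach against the corpus (1.55 ± 0.10, adjusted p = 2.39e-06), and was lower in the junction than in the forestomach (-0.65 ± 0.10, adjusted p = 9.01e-04). The second probe set of L1cam gave 0.86 for junction minus corpus (adjusted p = 0.00301), but -0.24 for junction minus forestomach, which did not pass (adjusted p = 0.196) and where the arrays overlapped. Ncam1, the neural cell adhesion molecule, which muscle also makes, had 125, 105 and 96.0 in the junction, 236, 223 and 223 in the forestomach and 99.7, 90.4 and 73.3 in the corpus. On this probe set the junction arrays of Ncam1 overlapped those of the corpus (0.28, 95% interval -0.01 to 0.58, adjusted p = 0.147). Its other kept probe sets were below 0 for that difference, at -0.70 (adjusted p = 0.0349), -0.30 (0.313) and -0.18 (0.344). Phox2a, a transcription factor of autonomic neurons, had 38.7, 18.2 and 26.6 in the junction, 39.7, 41.1 and 49.5 in the forestomach and 39.5, 34.5 and 43.3 in the corpus. Forestomach and corpus overlapped (0.12, 95% interval -0.31 to 0.55). Its fall in the junction against the forestomach (-0.53 ± 0.19, adjusted p = 0.0475) was lost without any 1 of 8 arrays, with adjusted p from 0.0583 to 0.136, and of the 9 arrays only that of the junction in series 1 could be left out without losing it.

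**Figure D5:**
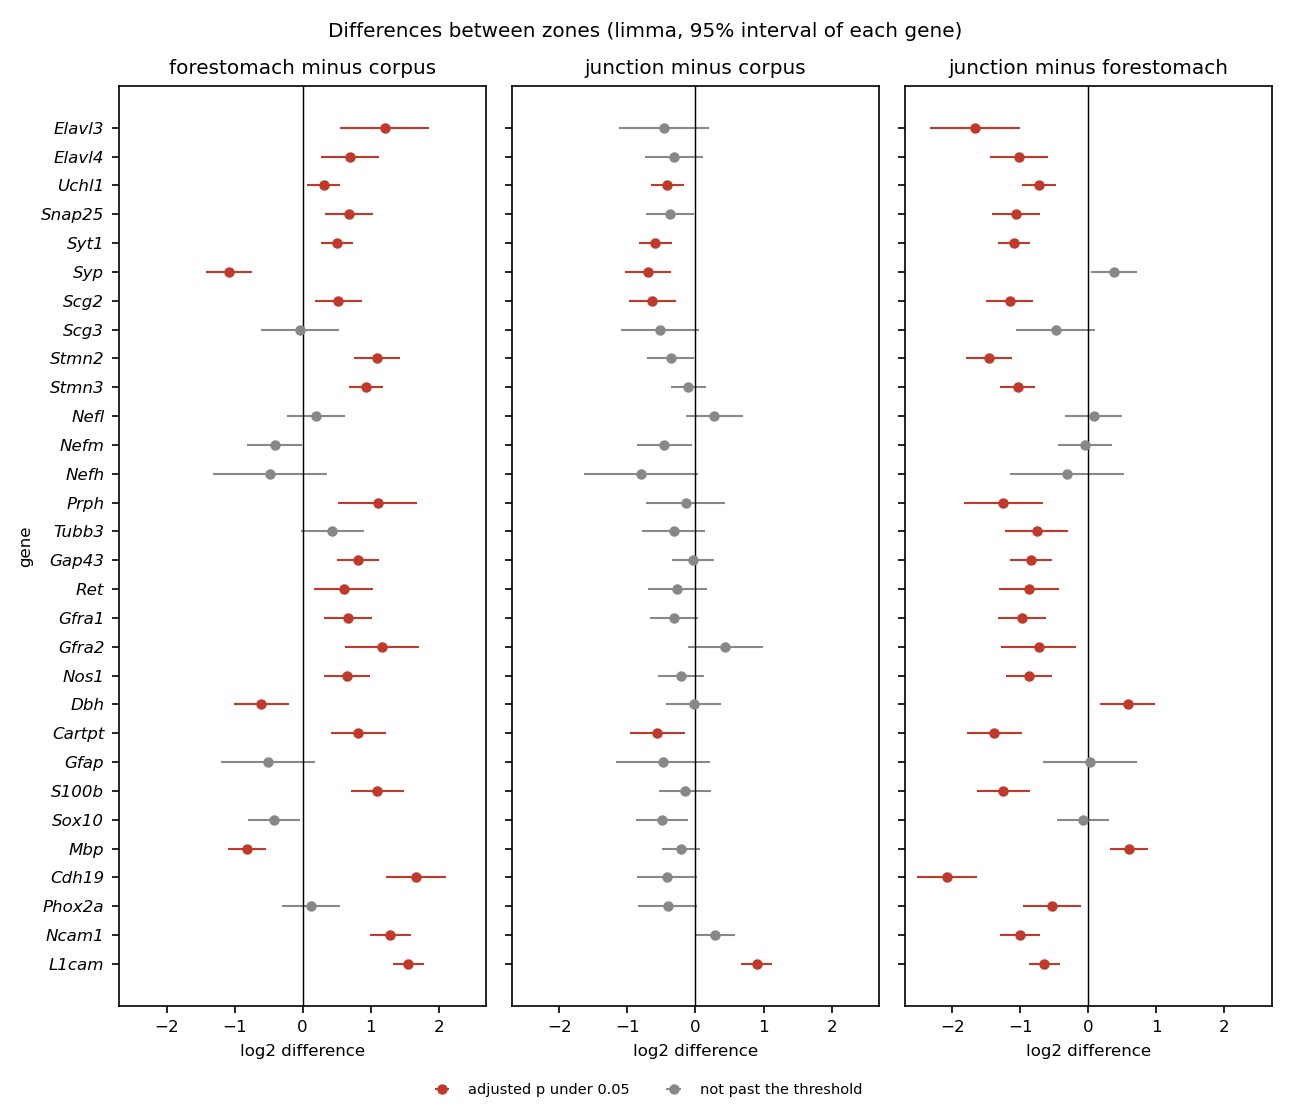
Log2 differences of the 30 members tested with the 95% interval of each, in 3 panels: forestomach minus corpus, junction minus corpus and junction minus forestomach; red marks an adjusted p under 0.05. Most red points lie right of 0 in the first panel and left of 0 in the third, and the middle panel holds 6 red points.

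The junction was also set against both neighbours at once, which asks whether a gene is lower or higher there than on either side. The junction mean was the lowest of the 3 zones for 22 of the 30 members, as it was for 23.4% of all genes tested. On the probe sets that stand for the genes, all 3 junction arrays lay below the other 6 for 7 members (Cartpt, Cdh19, Gfra1, Scg2, Stmn2, Syt1 and Uchl1). Of all genes tested, 3.82% had that order. The junction arrays lay above the other 6 for 0 members (2.85% of all genes). On the other kept probe sets of Gfra1, Stmn2 and Syt1, junction and corpus arrays overlapped. With the intersection-union test, which takes the larger p of the 2 junction comparisons, 0 members were below or above both neighbours, where 0.0147% and 0.198% of all genes were. Syt1 came nearest (adjusted p = 0.082), and it was the 1 member that passed with a filter at the 60th percentile. At an unadjusted p under 0.05 the same test gave 6 members below both (Cartpt, Scg2, Snap25, Stmn2, Syt1 and Uchl1) and 0 above both, where 3.15% and 2.08% of all genes passed.

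Other genes of the nervous system were given the same test, from lists that name further neuron genes, transmitters, glia and growth factors. Of 32 other neuron genes measured, 8 rose and 3 fell in the forestomach against the corpus, 1 rose and 7 fell in the junction against the corpus, and 2 rose and 13 fell in the junction against the forestomach. Of all genes, 30% rose and 29.9% fell in the forestomach against the corpus, 13.2% and 11.8% did in the junction against the corpus, and 21.5% and 23.1% in the junction against the forestomach. The share of this list that rose in the forestomach was thus no larger than that of all genes. Hand2, a transcription factor that enteric neurons need to mature, rose most in the forestomach against the corpus (4.35-fold, adjusted p = 2.26e-05). Syn1, the vesicle protein synapsin I, rose 2.41-fold (adjusted p = 1.49e-04) and Eno2, the neuronal enolase, 1.83-fold (adjusted p = 0.026). Bex2 fell 2.93-fold (adjusted p = 1.14e-04) and Cplx2, complexin 2, a regulator of vesicle fusion, 1.93-fold (adjusted p = 9.94e-04). Thy1 rose 3.5-fold in the forestomach (adjusted p = 1.07e-05) and 2.20-fold in the junction (9.37e-04), both against the corpus. It was the 1 gene of this list that rose in the junction against the corpus. The median forestomach minus corpus difference over this list was 0.15, below the 0.63 of the members, and its median junction minus corpus difference was -0.40.

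Among 15 measured transmitter genes and receptors, 6 rose and 3 fell in the forestomach against the corpus, 1 rose and 5 fell in the junction against the corpus, and 3 rose and 7 fell in the junction against the forestomach. The forestomach counts lie near the shares of all genes that rose and fell there, 30% and 29.9%. In the junction, 13.2% of all genes rose and 11.8% fell against the corpus, and 21.5% and 23.1% did against the forestomach. The neuropeptide genes Tac1 (substance P), Penk (enkephalin) and Grp (gastrin-releasing peptide) rose 3.13-, 3.00- and 1.79-fold in the forestomach (adjusted p = 8.34e-04, 1.77e-05 and 0.00341). Vip, the peptide that inhibitory neurons release beside nitric oxide, had 333 to 427.5 in the junction, 873 to 1090.1 in the forestomach and 549 to 650 in the corpus. Its zones did not overlap, and it fell 1.56-fold in the junction against the corpus (adjusted p = 0.00771). Slc18a2, the vesicle transporter of monoamines, and Ddc, the decarboxylase of the same transmitters, both also made by enteroendocrine cells, fell 4.83- and 3.59-fold in the forestomach against the corpus (adjusted p = 6.57e-07 and 7.07e-06). Calcb, a calcitonin gene-related peptide gene, rose 17.3-fold in the junction against the corpus (adjusted p = 1.67e-05) and 3.34-fold in the forestomach against the corpus (adjusted p = 7.04e-04). It was the 1 gene of the list that rose in the junction against the corpus.

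Of 15 other genes of glia and Schwann cells, 10 rose and 3 fell in the forestomach against the corpus (30% and 29.9% of all genes did). In the junction 1 rose and 1 fell against the corpus (13.2% and 11.8% of all genes). Against the forestomach 3 rose and 9 fell there (21.5% and 23.1% of all genes). Art3 rose 4.09-fold in the forestomach (adjusted p = 4.08e-06), Egr2, a transcription factor of myelination, 3.41-fold (adjusted p = 0.00667), and Foxd3, a factor of the neural crest, 2.49-fold (adjusted p = 0.00517). Pmp22, a myelin protein that epithelia and fibroblasts make too, rose 2.61-fold (adjusted p = 1.94e-05). Ncmap, another protein of peripheral myelin, fell 17.3-fold (adjusted p = 8.80e-08) and rose 15.3-fold in the junction against the forestomach (adjusted p = 5.02e-07). The 10 gastric gland genes ran in the same directions, with median differences of -5.33 and 5.28. Which cells of the stripe made Ncmap was not tested. Of 12 growth factors and receptors, 6 rose and 2 fell in the forestomach against the corpus, against the same 30% and 29.9% of all genes. In the junction 2 rose and 2 fell against the corpus (13.2% and 11.8% of all genes). Against the forestomach 1 rose and 4 fell there (21.5% and 23.1% of all genes). In the forestomach against the corpus Ntrk3, the receptor of neurotrophin 3, rose 4.17-fold (adjusted p = 6.25e-06) and Bdnf 3.55-fold (adjusted p = 0.00173). Edn3, the endothelin that enteric neural crest cells need, fell 1.68-fold in that comparison (adjusted p = 0.0213). Ednrb, the receptor of Edn3, had 150.5 to 181 in the junction, 331 to 387.5 in the forestomach and 194 to 272 in the corpus, with no overlap between zones. It rose in the forestomach against the corpus (0.59, adjusted p = 0.00511) and fell in the junction against the corpus (-0.46, adjusted p = 0.0406).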

How the data were processed

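Signals of 9 RNA samples (3 zones in 3 series, each a pool of mice) were read from Affymetrix mouse expression arrays. The deposited table holds intensity values on the linear scale, which the authors computed; the submitters' processing notes name MAS5. Its version is not given in the sources used here. The mean of every array without the outer 2% at each end is 200.0, and array medians ran from 47.9 to 57.1. MAS5 uses mismatch probes for its background, which makes dim signals noisy. Arrays have no read depth, and it is their number that limits the precision.

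Gene names came from the platform annotation of 2016, updated to GRCm38.p6. Probe sets had to exceed the 40th percentile of an array (signals of 29.0 to 36.5) on 3 or more arrays, and the brightest such set by mean log2 value stands for its gene. For the tests, log2(signal + 9.8), where the added constant is the median of the arrays' 20th percentiles, went into limma 3.58.1 (R 4.3.3). The model held a mean for each zone, used every array, and gave moderated two-sided p-values that were Benjamini-Hochberg adjusted over 13637 genes (threshold 0.05). An intersection-union test set the junction against both neighbours. The procedure was tested on simulated data. Plots were made in matplotlib 3.10.9 under Python 3.11.15.

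The members, lists and alternatives were chosen with earlier results of these data known. All 32 members may be named. Other nerve, glia and growth lists may give up to 4 called genes per comparison and direction, by size of difference, and marker lists their 3 brightest genes and defining markers such as Acta2 and Chga. The 6 genes below both neighbours at an unadjusted p were named after their values were seen.

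The series number pairs the arrays, since the arrays of a series share their mice. For same-numbered arrays, deviations from the mean of the zone had r of -0.0287 to 0.123 (9 pairs, mean 0.0329). Among the alternatives were a block for the series, other filters, constants and scalings, and leaving out arrays.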

Additional observations from a re-analysis of the deposited data

How the results depend on the processing

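With the series as a replicate block, the forestomach call of Uchl1 (adjusted p = 0.0637) and the junction calls of Uchl1 (0.0504) and Cartpt (0.0821) against the corpus were lost and those of Nefm gained (0.0227 and 0.0365); the block changed no other call of a member. Of 1214 refits of the 51 called member differences, 1099 kept call and direction, 113 lost the call and 2 reversed, both of Mbp with the mean of its probe sets (0.16 for forestomach minus corpus and -0.43 for junction minus forestomach). Of 910 refits of the 39 uncalled differences, 28 passed and 43 changed sign; the cause was not tested. In the forestomach against the corpus, 8 members rose and 1 fell where a difference of at least 1 was also asked, and 5 fell where a call on any kept probe set of a gene counted. In the junction against the corpus, 2 rose with the 60th-percentile filter or median centring and 0 with the minimum of 1, and 3 fell with median centring, 8 with the mean of probe sets, 8 with any kept probe set and 0 with the minimum. In the junction against the forestomach, 0 rose with the mean of probe sets, 1 with only the 6 arrays compared and 0 with the minimum of 1, and 12 fell with the minimum. With the 60th-percentile filter 1 member was below both neighbours. Leaving out arrays or whole series gave 14 to 19 rises and 2 to 4 falls in the forestomach against the corpus, 1 to 2 rises and 0 to 5 falls in the junction against the corpus, and 1 to 3 rises and 17 to 20 falls in the junction against the forestomach. Each fit left with a single forestomach array assumes that it varies like the other zones. With the minimum of 1, 13.2% of all genes rose and 12.4% fell in the forestomach against the corpus. In the junction 5.52% and 1.47% did against the corpus, and 8.02% and 6.99% against the forestomach. Counting a call on any kept probe set gives genes with several sets more ways to pass. Calls over all genes moved with the settings too, so the member counts are not to be read alone.

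Without the arrays of series 1, 2 or 3, calls of 5, 5 and 3 members were lost in the forestomach against the corpus, 2, 4 and 5 in the junction against the corpus and 2, 3 and 5 in the junction against the forestomach. Signs of differences that had not passed changed as follows. With quantile normalization, forestomach minus corpus was 0.037 for Scg3, junction minus corpus 0.080 for Gap43 and junction minus forestomach -0.032 for Gfap. With median centring, which moved forestomach minus corpus by 0.11, Scg3 had 0.069 there, and junction minus corpus was 0.065 for Gap43 and 0.075 for Dbh. Junction minus corpus of S100b was 1.03 with the 60th-percentile filter, which passed on its other probe set, and 0.44 with the mean of probe sets, which gave -0.22 for Ncam1. Over the fits without arrays, forestomach minus corpus ranged from -0.33 to 0.23 for Scg3 and from -0.19 to 0.39 for Nefl. Junction minus corpus ranged from -0.39 to 0.22 for Prph, -0.12 to 0.046 for Gap43, -0.22 to 0.078 for Dbh and -0.29 to 0.014 for S100b. Junction minus forestomach ranged from -0.18 to 0.46 for Nefl, -0.18 to 0.10 for Nefm, -0.68 to 0.15 for Nefh, -0.22 to 0.28 for Gfap and -0.24 to 0.27 for Sox10. Counts over all genes moved as well, between 200 and 1854 falls in the junction against the corpus. Leaving out the forestomach arrays of series 2 and 3, or that of series 3 with the junction array of series 1, was chosen after seeing the data. Dim members, such as Elavl3, the neurofilament genes, Chat and Th, are limited by signal over background.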
